A study of Mus musculus with 12 samples.

Results

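Matrix metalloproteinases (MMPs) are zinc-dependent endopeptidases that cut collagens, elastin and other matrix proteins, and also release growth factors and chemokines held in the matrix. Most are secreted as inactive proenzymes, some are anchored in the cell membrane, and tissue inhibitors of metalloproteinases (TIMPs) bind their active sites and stop them. In tumors, macrophages, granulocytes and fibroblasts are well-known sources of these enzymes. The genes described here were 7 proteases and 2 inhibitors, Mmp2, Mmp8, Mmp9, Mmp12, Mmp13, Mmp14, Mmp19, Timp1 and Timp2, taken by symbol from the 27457 gene rows of a single-cell RNA sequencing data set. All 9 had a row.

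The cells came from tumors of MC38, a mouse colon carcinoma line, grown from MC38 cells injected under the skin of female mice aged 8 to 12 weeks. Hosts of 7 groups were F1 animals of C57BL/6J and a Collaborative Cross strain (CC001, CC002, CC007, CC036, CC075, CC079 or CC080, inbred lines descended from several founder strains), and those of the remaining group were B6 animals. At a volume of 75 to 110 mm3 isotype control antibody (2A3) or a PD-1 blocking antibody (aPD1, clone 29F.1A12) was injected once (200 µg), and the tumor was taken 48 h later and sorted to 90% CD45-positive and 10% CD45-negative cells. The study classed CC001, CC002 and CC075 as responder strains (10 isotype and 10 aPD1 tumors) and CC036, CC079 and CC080 as non-responder strains (9 isotype and 9 aPD1 tumors) from the growth of treated tumors, and 10 tumors of B6 and CC007 hosts had no class. In every one of the 12 pools (libraries), 2 strains were represented, each by 1 isotype and 1 aPD1 tumor.

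The replicate was the tumor, 48 in all, and tumors of 1 strain share a genotype, so that a class rests on 3 genotypes. The data held 93126 cells, from 53 to 3082 in a tumor, with a median of 3333.5 unique molecular identifiers (UMIs, each marking 1 captured transcript) per cell. Of these cells, 10176 (10.9%) carried a 16-base barcode that also occurred in another library. In the deposited clustering, 10 of the 27 clusters, with 68059 cells (73.1%), bore the markers of a joint list for monocytes and macrophages. They are called macrophages here, so that the word includes monocytes. Macrophage UMIs per tumor ranged from 46554 to 11778425, and 3 tumors had under 500 cells. No hashtag antibody was used for both treatments, so hashtag and treatment cannot be told apart.

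The members had different cellular sources (heat map of levels by cluster). Levels are given in CPM, the UMIs of a gene per 1000000 UMIs of the same cells. Because clusters were formed from the same genes, these levels are a description and no cluster was tested against the rest.

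**Figure D1:**
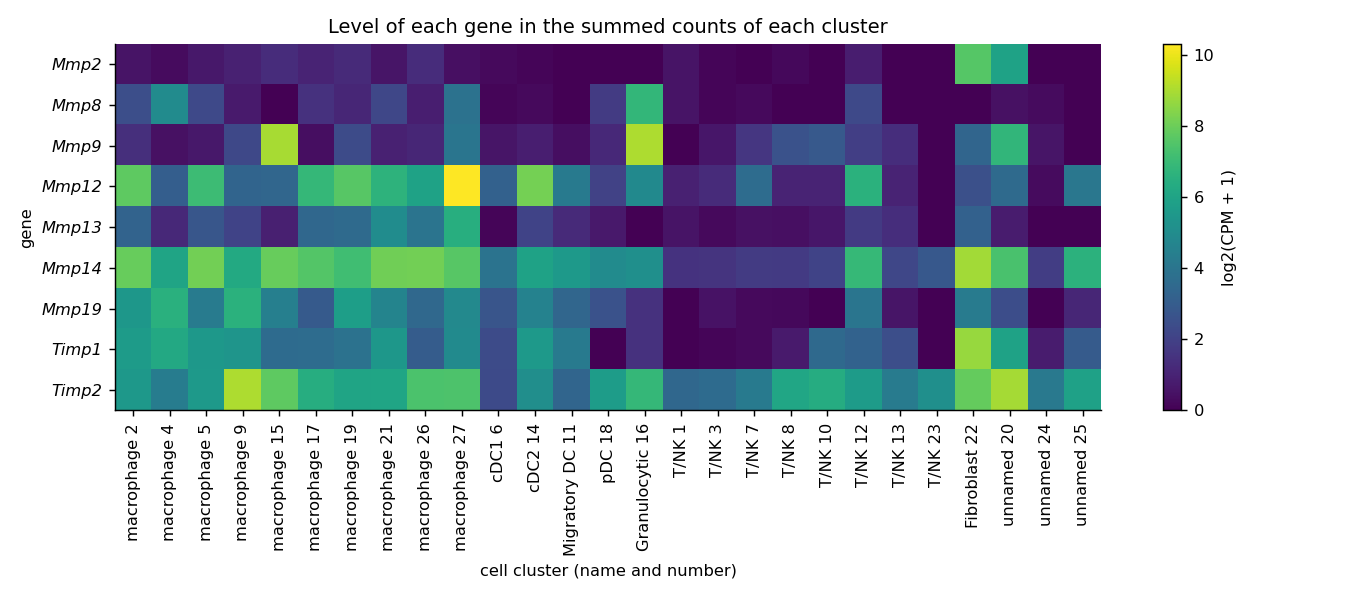
Level of each of the 9 genes (rows) in the summed counts of each of the 27 clusters (columns, with name and number), as log2(CPM + 1) in color. Mmp12 was highest in macrophage cluster 27 (1271 CPM), Mmp9 in granulocytic cluster 16 and macrophage cluster 15, and Mmp2 in fibroblast cluster 22.

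Of the collagenases, which cut fibrillar collagen, Mmp13 was nearly a macrophage transcript, with 96.5% of its 4926 UMIs in macrophages. Its level was 15.8 CPM in macrophages and 0.576 CPM in T/NK cells, which should lack the gene and served as a background. A UMI was found in 2.78% of macrophages (median 3481 UMIs per cell) and in 0.135% of T/NK cells (median 1945). Here T/NK cells are those of the 8 clusters so named. Cluster 24, led by Gzma and Ncr1, stayed unnamed and is not among them. Cluster 27, led by Gpnmb, Hmox1 and Egln3, held 32.5% of the UMIs of Mmp13 at 86.2 CPM, ahead of cluster 21 (31.7 CPM), which was led by the interferon-induced Ifit3, Rsad2 and Cmpk2. Mmp13 was itself among the 10 leading genes of cluster 27. Mmp8, a collagenase known from neutrophil granules, was sparse, with 1515 UMIs. Its highest level was in granulocytic cluster 16 (114 CPM), yet 93.5% of its UMIs came from the far more numerous macrophages, of which cluster 4, led by Ace and Adgre4, had the highest level (30.3 CPM). Clusters 4 and 2 held almost the same share of the macrophage UMIs of Mmp8, 29.4% and 28.7%, followed by cluster 27 with 17.9%.

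Mmp12, macrophage elastase, had 86.2% of its 68351 UMIs in macrophages, with 195.7 CPM there against 11.1 CPM in T/NK cells. Cluster 27 held 34.6% of them, and 45.7% of its cells had an Mmp12 UMI. The second level was that of cDC2 cluster 14 (286 CPM), followed by macrophage cluster 2 (217 CPM), which was led by Cxcl2 and Il1b. Mmp12, too, was a leading gene of cluster 27. Over the 27 clusters, the pattern of Mmp12 was closest to those of Dpys, AU022793 and Gm38204 (Pearson's r from 0.8745 to 0.8955 on log2(CPM + 1), among 12683 genes), and that of Mmp13 to those of Htra4, Gpr31b and AI427809 (r from 0.842 to 0.847). Mmp8 was closest to Rab44, S100a8 and Cd177 (r from 0.890 to 0.909), genes of which the latter 2 are known from granulocytes. These correlations describe the cluster sums, which share their cells and their differences in depth.

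The gelatinases, which cut denatured collagen and basement membrane collagen, had most of their UMIs outside the macrophages. Mmp2 had 10.1% of its 2509 UMIs in macrophages and 65.4% in cluster 20, which the marker lists left unnamed and which was led by Kirrel3, Tenm3 and Rhox5. Its level was highest in fibroblast cluster 22 (193 CPM), and its pattern was closest to those of Prrx1, a mesenchymal transcription factor, Pcdh19 and the collagen gene Col5a1 (r from 0.981 to 0.985). Mmp9 had 40.4% of its UMIs in macrophages and 52.0% in cluster 20. By level it was led by granulocytic cluster 16 (528 CPM) and the small macrophage cluster 15 (498 CPM), ahead of cluster 20 (109 CPM). Cluster 15 had 293 cells and was led by Ctsk, Acp5, Atp6v0d2 and Mmp9 itself, the first 3 being genes known from osteoclasts. Over clusters, Mmp9 had no close companion: Jdp2, Atp6v0d2 and Tmem120a came first (r from 0.711 to 0.771).

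Mmp14, a membrane-anchored protease that activates proMMP2, was the most widely detected protease. A UMI was present in 50.7% of macrophages and in 2.09% of T/NK cells. Fibroblast cluster 22 stood at 475 CPM, and macrophage clusters 5, 26 and 21 lay close together at 279, 274 and 272 CPM. Its pattern was closest to those of Myof, Plxnb2 and Itgb5 (r from 0.946 to 0.957). Mmp19, a secreted protease, was highest in macrophage clusters 9 (94.1 CPM, led by Lyve1 and Cd163) and 4 (93.7 CPM), and its pattern was closest to those of Mfsd7a, the fibronectin gene Fn1 and Cd302 (r from 0.905 to 0.920). The inhibitor Timp1 was highest in fibroblasts (419 CPM) and next in macrophage cluster 4 (73.6 CPM). Timp2, which inhibits MMPs and also takes part in the activation of proMMP2 by MMP14, was highest in macrophage cluster 9 (529 CPM) and in cluster 20 (482 CPM). T/NK cells had 32.2 CPM of Timp2 against 100.7 CPM in macrophages, so that Timp2 was detected well outside the macrophages. The nearest patterns were those of Tmem198b, Gas2l1 and Epb41l1 for Timp1 (r from 0.845 to 0.851) and of Glt8d1, Pmp22 and Akr1b8 for Timp2 (r from 0.8047 to 0.8215).

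Mmp13 and Mmp12 are neighbors on chromosome 9, and both were higher in CC001 hosts than in the strains that shared their pools. On GRCm38 (GENCODE vM21), Mmp13 lies at chr9:7272514-7283331, Mmp12 at chr9:7344381-7369499 and Mmp8 at chr9:7558456-7568485, all on the plus strand. The 250 bases before the start of Mmp13 and before the second listed start of Mmp12 are shown because both hold the letters of an AP-1 site, the element through which inducible MMP genes are best known to be controlled. They are RefSeq sequences of the C57BL/6J reference (GRCm38.p6), not of a Collaborative Cross strain. Capitals mark the AP-1 letters, TGANTCA. They also mark the letters of a TATA box, TATAAA. Both were searched on both strands and do not overlap. The Mmp13 stretch, chr9:7272264-7272513 on the plus strand, is upstream of the gene, and the Mmp12 stretch, chr9:7347124-7347373 on the plus strand, lies in an intron of the longer Mmp12 transcripts.
Mmp13: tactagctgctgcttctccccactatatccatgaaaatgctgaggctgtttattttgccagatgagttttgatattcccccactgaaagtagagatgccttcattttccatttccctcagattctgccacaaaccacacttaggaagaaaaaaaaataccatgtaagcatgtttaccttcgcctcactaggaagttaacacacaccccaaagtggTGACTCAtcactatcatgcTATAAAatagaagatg
Mmp12: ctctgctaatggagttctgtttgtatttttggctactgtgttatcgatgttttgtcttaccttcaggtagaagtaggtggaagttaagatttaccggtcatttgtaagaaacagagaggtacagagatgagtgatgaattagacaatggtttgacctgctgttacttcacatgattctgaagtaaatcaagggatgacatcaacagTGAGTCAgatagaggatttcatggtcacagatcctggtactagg

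In Mmp13 the AP-1 letters lay 35 to 29 bases and the TATA letters 16 to 11 bases before the start. In Mmp12 the AP-1 letters lay 44 to 38 bases before it. Of 32851 promoter windows of 250 bases, 6.75% held TGANTCA, 12.4% held TATAAA and 1.21% held both. Promoters were listed for 6 of the 9 members, and neither motif was found in the first start of Mmp12 or in the windows of Mmp8, Mmp14, Timp1 and Timp2. A match of letters is a description and shows no binding.

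Whether the members differed between host strains was tested on UMIs summed per tumor over all macrophages (edgeR quasi-likelihood F-test over the 8 strains, with treatment as a covariate). In such sums, fewer cells of a type and less RNA per cell cannot be told apart. Of the 9 members, 6 passed an adjusted p of 0.05, beside 51.7% of the 12510 genes tested, so that a difference between strains was common. The adjusted p was 3.41e-06 for Mmp13, 1.88e-05 for Timp2, 0.000371 for Mmp12, 0.00543 for Mmp8, 0.0131 for Timp1 and 0.0298 for Mmp9. Mmp14 (adjusted p = 0.0853), Mmp19 (0.257) and Mmp2 (0.71) did not pass. With the pool as a block, which compares strains within libraries, 4 members passed (Mmp8, Mmp9, Mmp13 and Timp1) beside 13% of the genes tested, while Mmp12 (adjusted p = 0.123) and Timp2 (0.788) did not.

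Each strain was then set against the mean of the other 7, and separately, with the pool as a block, against the strains of its own pools. These comparisons were added after values had been seen. Genes called in the first kind made up 14.4% in CC001, 4.66% in CC002, 17.3% in CC036, 23.8% in CC075 and 27% in CC079, strains in which 9 member contrasts passed in all, and 5.28% in B6, 1.2% in CC007 and 2.95% in CC080, in which no member passed. With the pool as a block in that fit, none of the 9 passed. Within pools, 7 member contrasts passed, in CC001 (2.61% of genes called), CC036 (6.01%), CC075 (8.39%) and B6 (1.43%), and none in CC002 (3.01%), CC007 (1.18%), CC079 (5.95%) and CC080 (2.26%). Differences are given on the log2 scale with their SE.

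**Figure D2:**
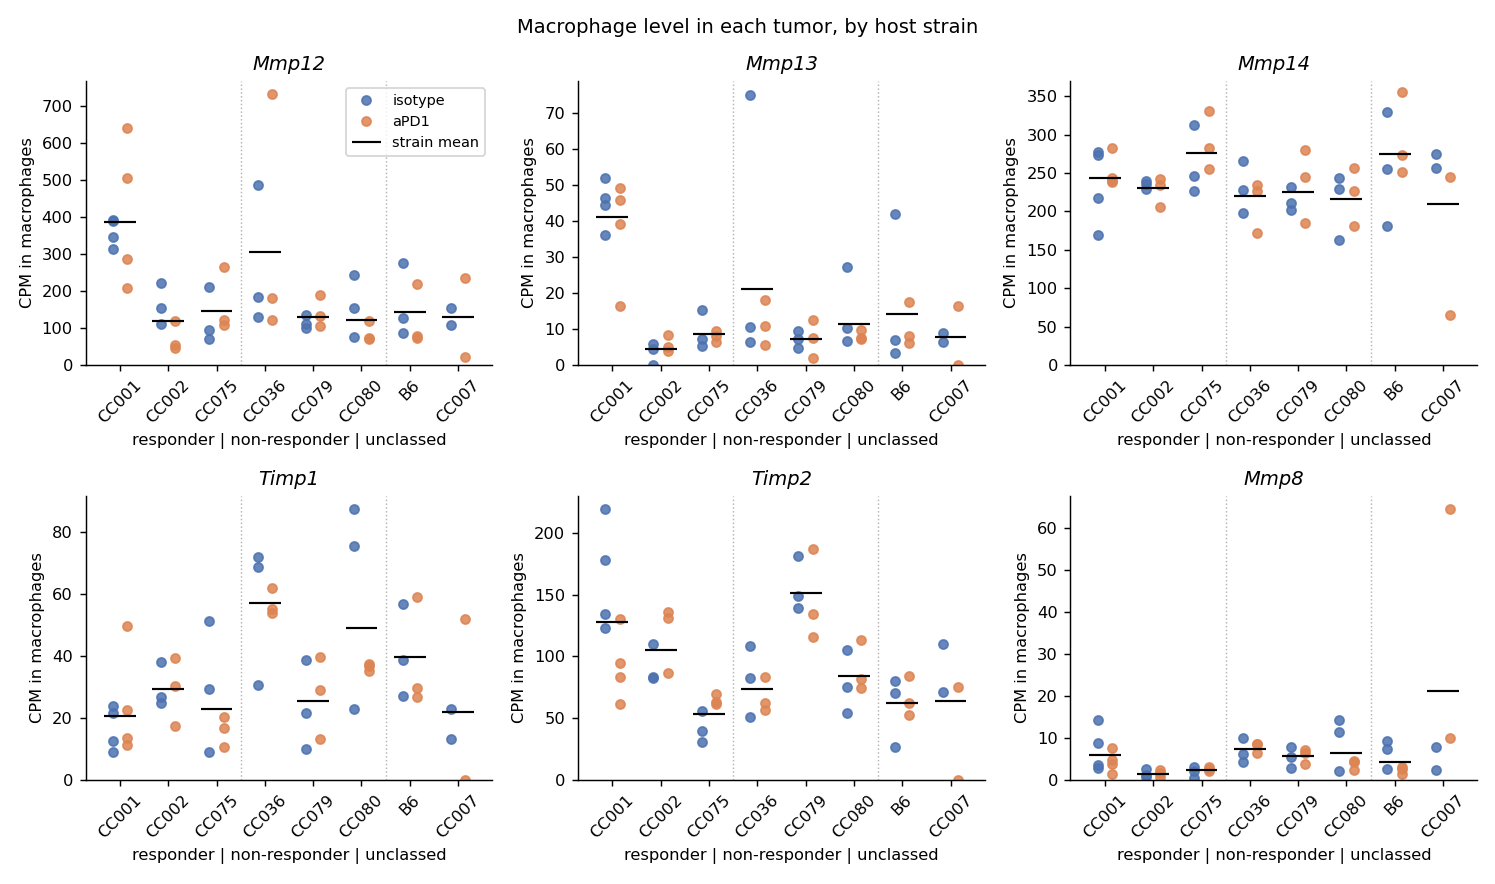
Level of 6 genes (CPM, vertical axis from 0) in the macrophages of each of the 48 tumors, by host strain; blue points are isotype tumors, orange points aPD1 tumors, and bars strain means. CC001 tumors held the highest mean level of Mmp13 (41.1 CPM) and Mmp12 (386 CPM), and single CC036 tumors reached above them.

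Mmp13 was highest in CC001 hosts. Its level in the 8 CC001 tumors ranged from 16.4 to 51.8 CPM with a median of 45.1, and that in the 40 tumors of the other strains from 0 to 75.1 CPM with a median of 7.29. Only 5 of those 40 lay above the lowest CC001 tumor. In order of the mean, CC001 (41.1 CPM) was followed by CC036 (21.03), B6 (14.02), CC080 (11.4), CC075 (8.61), CC007 (7.85), CC079 (7.21) and CC002 (4.54), and the ranges of all neighbors in this order overlapped. Against the mean of the other strains, Mmp13 was higher in CC001 by 2.09 ± 0.29 on the log2 scale (edgeR adjusted p = 1.22e-07).

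Mmp12 followed the same order at the top. It ranged from 208 to 642 CPM with a median of 368.5 in CC001 tumors, and from 21.5 to 733 CPM with a median of 122 in the other 40, of which 9 lay above the lowest CC001 tumor. CC036 had the second mean, 306 ± 250 CPM (SD, n = 6), which rested on a few tumors of high level, and the remaining strains lay between 118 and 145 CPM. Against the mean of the other strains, CC001 was higher by 1.38 ± 0.28 (adjusted p = 0.000143) and CC036 by 0.91 ± 0.31 (adjusted p = 0.0278), and with the pool as a block in that fit the CC036 value was -0.044.

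Each CC001 tumor could also be set beside the tumor of the same treatment in its own pool, which shared its library. In pool 1, Mmp13 was 44.4 CPM in the CC001 isotype tumor and 4.77 CPM in that of CC079, and 49.2 against 12.6 CPM in the aPD1 tumors. In pool 4, it was 51.8 against 27.2 CPM (CC080) in isotype and 45.8 against 7.23 CPM in aPD1 tumors. CC001 was the higher of the pair in 8 of 8 pairs for both genes.
The ratio to the partner had a median of 5.29 for Mmp13 (from 1.91 to 9.31 in 7 pairs) and of 2.44 for Mmp12 (from 1.40 to 8.67 in 8 pairs). The CC002 isotype tumor of pool 12 had no Mmp13 UMI among 412779, which allows up to 7.27 CPM, and gave no ratio. Fitted against the strains of its pools with the pool as a block, CC001 was higher by 2.03 ± 0.35 for Mmp13 (edgeR adjusted p = 0.000304) and by 1.42 ± 0.36 for Mmp12 (adjusted p = 0.0258). The Mmp12 call was lost without pool 1, 2, 4 or 5 (adjusted p from 0.0733 to 0.139), and that of Mmp13 was kept without each of 10 pools in turn.

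Since cluster 27 carries much of both genes and its share of the cells varied among tumors, the strain difference was also measured inside single clusters (plot of CC001 against the other strains). In cluster 26, led by Fcrls, Olfml3 and Hpgds, Mmp13 in CC001 tumors ranged from 15.98 to 63.5 CPM with a median of 42.8. In the 39 other tumors it ranged from 0 to 18.6 CPM with a median of 4.03, so that 7 of 8 CC001 tumors lay above all of them. Mmp12 in the same cluster ranged from 111 to 212 CPM (median 164) in CC001 and from 0 to 199 CPM (median 25.1) elsewhere, where 1 tumor exceeded the lowest CC001 tumor. Within pools, the difference in cluster 26 was 3.21 ± 0.41 for Mmp13 (adjusted p = 1.84e-07) and 2.88 ± 0.45 for Mmp12 (adjusted p = 4.01e-05), beside 1.66% of genes called. In the interferon-marked cluster 21 it was 2.02 ± 0.40 for Mmp13 (adjusted p = 0.0019) and 2.28 ± 0.41 for Mmp12 (adjusted p = 0.00126), beside 0.506% called. In cluster 5 the difference of CC001 was 1.48 ± 0.37 for Mmp12 (adjusted p = 0.0419, 0.675% called) and 1.02 ± 0.41 for Mmp13 (adjusted p = 0.369). In cluster 27, of which both genes are leading genes, it was 1.47 ± 0.29 for Mmp12 (adjusted p = 0.00414, 0.593% called) and 0.68 ± 0.38 for Mmp13 (adjusted p = 0.565). In cluster 2 neither gene passed, with 1.00 ± 0.34 for Mmp12 (adjusted p = 0.179) and 1.80 ± 0.61 for Mmp13 (adjusted p = 0.14), beside 1.28% called. These were the 5 clusters fitted within pools, in which 6 of 34 member tests passed for CC001, all of them of Mmp12 or Mmp13, and 20 of 272 over all strains. In the fits that gave these calls, from 0.506% to 9.16% of genes were called. Over all macrophages but those of cluster 27, the within-pool difference was 2.49 ± 0.37 for Mmp13 (adjusted p = 3.11e-05, 2.33% called) and 1.34 ± 0.39 for Mmp12 (adjusted p = 0.0669). In cluster 26, CC079 was below its partner strains, CC001 among them, by -2.51 ± 0.49 for Mmp13 (adjusted p = 0.000506, 4.96% called).

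**Figure D3:**
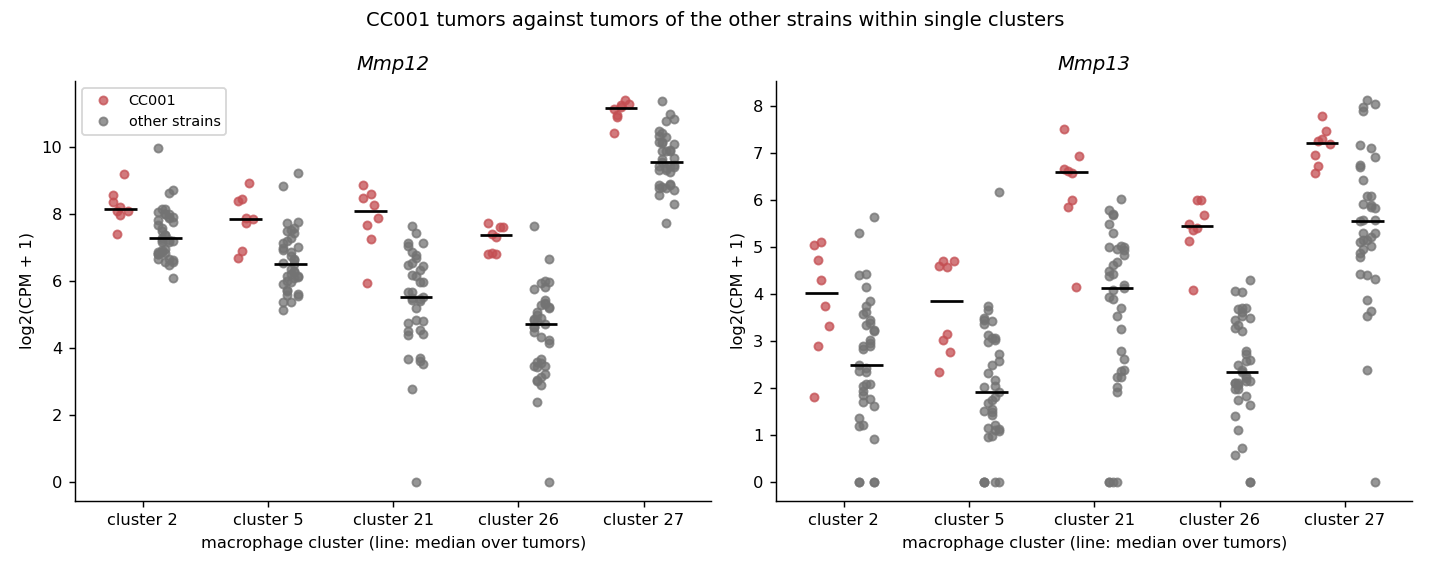
Mmp12 (left) and Mmp13 (right) as log2(CPM + 1) in 5 macrophage clusters, 1 point per tumor with at least 20 cells of the cluster; red points are CC001 tumors, grey points tumors of the other strains, and lines medians. In cluster 26 the CC001 tumors form a separate upper group for Mmp13, with 7 of 8 above all others.

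The difference was also seen in the share of cells with a UMI, although depth differed as well. In cluster 26, Mmp13 was found in 10.6% of CC001 cells (median 5109 UMIs per cell) and in 1.46% of the other cells (median 4209). In CC001 cells of that cluster with an Mmp13 UMI, 39.4% also had an Mmp12 UMI, against 17.98% of those without. Cells with Mmp13 were deeper (median 7084 against 4916 UMIs), and the part of depth in this was not tested.

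Genes around Mmp13 and Mmp12 were read from the same fit. Of 20 genes with a row within 1000000 bases, 8 passed the filter on low counts. Mmp13 and Mmp12 are among the 8, and the stretch was set around them after their levels had been seen. Their calls were thus given in advance and add nothing to the count below. Against the mean of the other strains, a fit that called 14.4% of all genes in CC001 and did not hold the pool constant, 4 of the 8 were called: Mmp13 and Mmp12, which were higher, and Tmem123 (-0.24 ± 0.063, adjusted p = 0.00982) and Birc2 (-0.28 ± 0.092, adjusted p = 0.0374), which were lower. Mmp8, on the same stretch, had a difference of 0.51 ± 0.31 (adjusted p = 0.249).

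Mmp8 was lowest in CC002 and CC075. It ranged from 0.614 to 2.42 CPM (median 1.33) in CC002 and from 0.451 to 2.96 CPM (median 2.36) in CC075, while CC036 tumors held 4.13 to 10.0 CPM (median 7.39). Neither of the low strains overlapped with CC036, but both overlapped with B6, CC001, CC007 and CC080. Both low strains were below the partner tumor in 6 of 6 pairs. Counts were low, from 1 to 16 Mmp8 UMIs in a CC002 tumor and from 2 to 22 in a CC075 tumor. In the aPD1 pair of pool 3 the CC002 tumor had 10 UMIs and the CC080 tumor 14, so the direction of single pairs is uncertain. In pools 9 and 10 the partner of CC075 was CC036. Within pools the difference was -1.75 ± 0.50 for CC075 (adjusted p = 0.0215) and -1.91 ± 0.57 for CC002 (adjusted p = 0.0554). Against the mean of the other strains, that of CC002 was -1.89 ± 0.52 (adjusted p = 0.0153), a call lost with the pool block. In cluster 2 alone, CC002 was lower within pools by -3.07 ± 0.74 (adjusted p = 0.00164, 3.26% called). Without pool 9 or 10 the CC075 call was lost (adjusted p = 0.0681 and 0.0728).

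Timp1 and Mmp14 also set CC075 and CC036 apart within their shared pools. Timp1 was below the partner in 6 of 6 CC075 pairs, by -1.39 ± 0.37 (adjusted p = 0.0183). Its highest mean was that of CC036, where tumors ranged from 30.5 to 72.1 CPM (median 58.7), against 9.03 to 51.3 CPM (median 18.3) in CC075. The summed level of markers listed for MC38 cells in macrophages was also below the partner in each of these 6 CC075 pairs. It ranged from 4.79 to 32.3 CPM in CC075 and from 21.7 to 67.2 CPM in the partner tumors. That list named no cluster, and the part of RNA from other cells in the Timp1 difference was not tested. Mmp14 varied less: CC075 tumors ranged from 227 to 331 CPM (median 269.5) and CC036 tumors from 172 to 266 CPM (median 227), with overlap. Within pools, CC075 was nonetheless the higher in 6 of 6 pairs (0.45 ± 0.13, adjusted p = 0.0322) and CC036 the lower in 6 of 6 (-0.52 ± 0.13, adjusted p = 0.0177). Of these 6 pairs each, 4 are pairs of CC075 with CC036 and hence shared. Without pool 9 all 3 calls were lost (adjusted p from 0.105 to 0.159). Mmp14 also differed within pools inside single clusters. In cluster 5 it was lower in CC036 by -0.66 ± 0.12 (adjusted p = 0.00118, 2.27% called) and higher in CC075 by 0.48 ± 0.12 (adjusted p = 0.0121, 3.94% called), in cluster 2 the values were -0.54 ± 0.13 (adjusted p = 0.00872, 4.14% called) and 0.45 ± 0.12 (adjusted p = 0.0186, 9.16% called), and in cluster 26 they were -0.35 ± 0.095 (adjusted p = 0.0296, 3.8% called) and 0.35 ± 0.093 (adjusted p = 0.0132, 7.54% called). Timp1 in cluster 2 was higher in CC036 (1.10 ± 0.32, adjusted p = 0.0383) and lower in CC075 (-1.26 ± 0.31, adjusted p = 0.00789). The remaining calls of this kind in these 2 genes were Mmp14 in cluster 27 of CC079 (-0.77, adjusted p = 0.047, 1.17% called) and Timp1 in cluster 21 of CC080 (2.04 ± 0.50, adjusted p = 0.013, 0.675% called). Against the mean of the other strains, Timp1 was higher in CC036 by 0.87 ± 0.30 (adjusted p = 0.0299), a call that was lost with the pool block (0.80, adjusted p = 0.766) and was not made within pools (adjusted p = 0.209).

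In macrophages as a whole, Timp2 passed in comparisons across pools and not within them. It was highest in CC079 (115 to 187 CPM, median 144) and CC001 (61.3 to 219 CPM, median 126.5) and lowest in CC075 (30.5 to 69.1 CPM, median 58.3) by the mean, and CC079 and CC075 did not overlap. Against the mean of the other strains, the difference was 0.86 ± 0.19 for CC079 (adjusted p = 0.000341), 0.64 ± 0.17 for CC001 (adjusted p = 0.00523) and -0.81 ± 0.19 for CC075 (adjusted p = 0.00384). But CC079 and CC001 shared pools 1 and 2, where the median Timp2 level was 142 and 158 CPM, and CC075 was in pools 9, 10 and 11, where it was 58.7, 56.6 and 59.3 CPM. In the other pool of CC079, pool 5, tumors ranged from 83.1 to 139 CPM. In those of CC001, pools 4 and 12, they ranged from 75.1 to 123 and from 61.3 to 178 CPM. Set against the strains of the same pools, the difference was 0.21 ± 0.24 for CC079 (adjusted p = 0.742), 0.14 ± 0.22 for CC001 (adjusted p = 0.916) and -0.26 ± 0.26 for CC075 (adjusted p = 0.6). These differences were nearer to zero than those across pools, while their SEs were only somewhat larger. Strain and pool cannot be told apart for Timp2 in macrophages as a whole. In cluster 5 alone, CC075 was lower within pools (-1.03 ± 0.32, adjusted p = 0.0499).

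Mmp9 in macrophages rested on few cells. Cluster 15 made up 0.431% of macrophages and held 73.0% of their Mmp9 UMIs. In the tumor of highest level, CC002 isotype of pool 3 (52.6 CPM), 97.9% of the Mmp9 UMIs came from 4 cells of cluster 15, and the level without that cluster was 1.11 CPM. The next was CC007 isotype of pool 7, with 38.0 CPM and 0.270 CPM without it. CC075 isotype and aPD1 of pool 11 and CC036 aPD1 of pool 8 kept 15.5, 11.9 and 11.4 CPM. The low level of Mmp9 in CC001 (-2.56 ± 0.83 against the mean of the other strains, adjusted p = 0.0231) was no longer called without cluster 15 (-0.23, adjusted p = 0.836), was lost with the pool block and was not called within pools (-1.26 ± 0.89, adjusted p = 0.685). B6 was lower than the strains of its pools (-3.09 ± 0.86, adjusted p = 0.044), a call that was lost without cluster 15, where the difference was -3.57 ± 1.34 (adjusted p = 0.117). Over all macrophages, B6 was the lower in 4 of 6 pairs and the higher in 2. In 1 of those 2, aPD1 of pool 6, the CC007 tumor had no Mmp9 UMI, which allows up to 64.4 CPM. In cluster 2 alone, which held 6.17% of the macrophage Mmp9 UMIs, Mmp9 was higher in CC075 than in the strains of its pools (3.62 ± 1.32, adjusted p = 0.00558, 9.16% called). Over all macrophages without cluster 15, the CC075 tumors of pools 9 and 10 had 0.451 to 3.89 CPM, below those of pool 11.

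**Figure D4:**
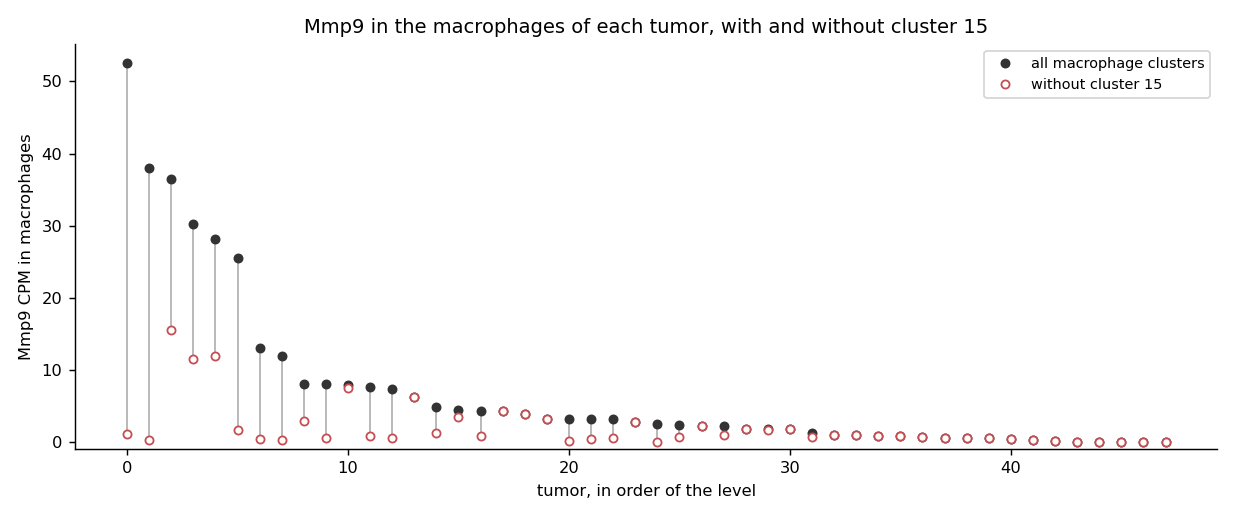
Mmp9 level (CPM) in the macrophages of each of the 48 tumors, in falling order; filled points are all macrophages, open points macrophages without cluster 15, joined by a line. The highest tumor dropped from 52.6 to 1.11 CPM.

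The study asked what sets responder strains apart from non-responder strains, and the members were accordingly compared between the classes over both treatments. Of the 8 members tested in macrophages, Mmp14 and Timp1 passed, in a comparison in which 6.56% of 11873 genes were called (4.10% higher and 2.46% lower in responder strains). Mmp2, with 253 UMIs in macrophages, did not pass the filter on low counts. The median difference over all genes was -0.0045 on the log2 scale. Tumors were the replicates of this fit, which held no strain term. Here and in the other comparisons of classes, SEs and p-values therefore measure the spread between tumors, not that between the strains of a class.

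Mmp14 ranged from 170 to 313 CPM (median 238) in responder isotype, 206 to 331 (median 243) in responder aPD1, 163 to 266 (median 228) in non-responder isotype and 172 to 280 (median 227) in non-responder aPD1 tumors. The 4 groups overlapped widely. The fitted difference was 0.22 ± 0.067 (adjusted p = 0.0369), a small shift. Timp1 ranged from 8.99 to 51.3 CPM (median 24.4) in responder isotype, 10.7 to 49.7 (median 18.7) in responder aPD1, 10.0 to 87.4 (median 38.8) in non-responder isotype and 13.2 to 62.1 (median 37.2) in non-responder aPD1 tumors. It was lower in responder strains by -0.80 ± 0.25 (adjusted p = 0.0489), with overlapping groups. Both lay close to the threshold. The Mmp14 call was lost with library size scaling (adjusted p = 0.129), with no filter on low counts (0.0811) and without cluster 5 (0.0572), and also without CC036, CC075, CC079 or CC080 and without pool 2, 3, 5, 9, 10 or 11 (adjusted p from 0.0616 to 0.175). That of Timp1 was lost with no filter (0.0599) and without the tumors of under 500 cells (0.0565), and also without CC001, CC036, CC075 or CC080 and without pool 1, 3, 4, 8, 9, 10 or 11 (adjusted p from 0.0509 to 0.23).

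Markers listed for MC38 cells moved with the classes. The summed level of 8 such markers in macrophages, all of them with a macrophage UMI, ranged from 4.79 to 37.5 CPM (median 12.8) in responder and from 14.96 to 67.2 CPM (median 30.4) in non-responder tumors. No cluster was named by this list, and some of its markers were among the leading genes of the unnamed cluster 25. The list may thus not single out MC38 cells. The 7 fibroblast markers did not part the classes in this way (medians 5.57 and 5.19 CPM). The part of such RNA in the Timp1 difference was not tested. Mean macrophage makeup differed too. Cluster 26 held 25.0% of macrophages but 6.38% of their Timp1 UMIs, and cluster 4 held 7.18% and 10.4%. With isotype, the mean share of cluster 26 was 29.7% for responder against 21.6% for non-responder strains. That of cluster 4 was 5.88% against 9.00%. With aPD1 both kept this order, and ranges overlapped. Cluster 2, with 45.1% of these UMIs, changed its order between treatments. The part of makeup in the Timp1 difference was not tested.

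**Figure D5:**
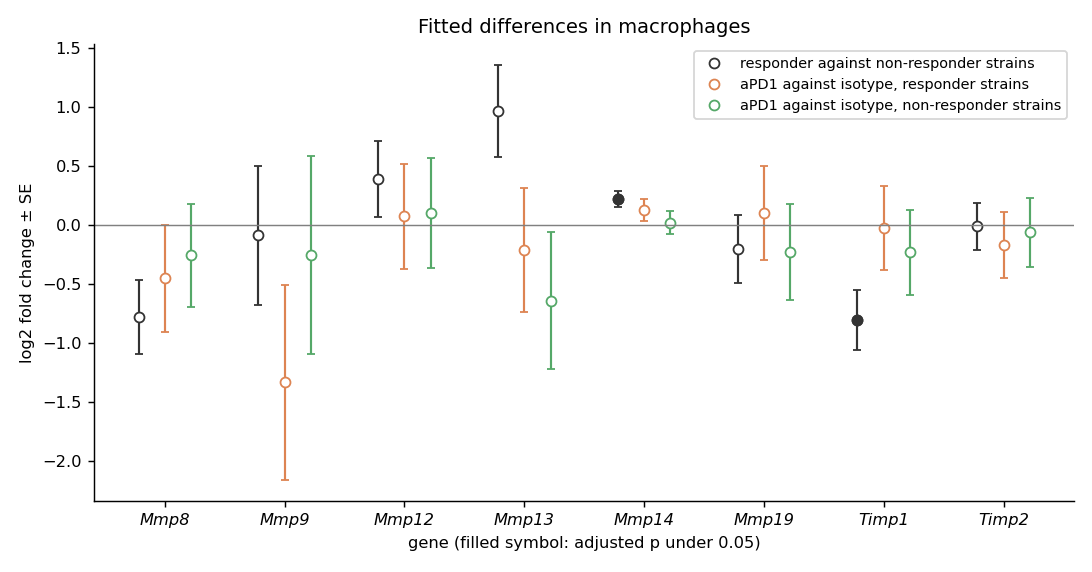
Fitted log2 fold changes (± SE) in macrophages for the 8 members tested, with black points for responder against non-responder strains, orange for aPD1 against isotype in responder strains and green for the same in non-responder strains. Filled points, adjusted p under 0.05, are those of Mmp14 and Timp1 in the class comparison.

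Mmp13 and Mmp12 did not pass between classes (0.97 ± 0.39, adjusted p = 0.153, and 0.39 ± 0.32, adjusted p = 0.564), and CC001 decided the sign of both. Without CC001 the differences were -0.63 (adjusted p = 0.287) for Mmp13 and -0.46 (adjusted p = 0.431) for Mmp12. In single clusters, 4 of the 54 member tests passed. Mmp13 was higher in responder strains in cluster 26 (2.56 ± 0.52, adjusted p = 0.000606, beside 7.59% called) and cluster 21 (1.77 ± 0.41, adjusted p = 0.00798, 1.72% called), the clusters in which CC001 stood apart. Timp1 was lower in cluster 26 (-1.16 ± 0.35, adjusted p = 0.0349) and cluster 2 (-0.74 ± 0.22, adjusted p = 0.0456, 3.83% called). Leaving out CC001 also lowered the Mmp8 difference, from -0.78 ± 0.32 (adjusted p = 0.144) to -1.78 ± 0.31 (adjusted p = 0.000463, beside 7.81% of genes called without that strain). Within isotype tumors alone 0.278% of genes and within aPD1 tumors alone 6.44% were called, and no member was among them.

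With the pool as a block, Mmp8 also passed between classes (-1.04 ± 0.31, edgeR adjusted p = 0.0362), in a fit that called 8.93% of genes, and Mmp14 passed within aPD1 tumors (0.34 ± 0.092, adjusted p = 0.0164), beside 11.8% called. In single clusters the block lost the Timp1 call in cluster 26 (adjusted p = 0.106) and added Mmp8 in cluster 4 (adjusted p = 0.0239, 1.73% called), Mmp14 in cluster 26 (adjusted p = 0.00597, 8.88% called) and Mmp14 in cluster 27 (adjusted p = 0.0219, 1.34% called).

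The effect of aPD1 itself was measured 48 h after the dose. In responder strains, in non-responder strains and in their difference, edgeR called 0 of 11873 genes (821, 91 and 680 at an unadjusted p under 0.05), and DESeq2 called 2 (0.0168%), 0 and 1 (0.00842%). These fits did not pair an aPD1 tumor with the isotype tumor of its strain and pool. Differences between strains and pools thus add to their errors, and a count of 0 does not show that aPD1 had no effect. None of the 8 members tested passed, nor did any in the 14 clusters fitted singly, of which cluster 2 (0.148% of genes called) and cluster 4 (0.0225%) had any call, both in responder strains. In responder strains the fitted effects were 0.13 ± 0.093 for Mmp14, 0.07 ± 0.44 for Mmp12, -0.21 ± 0.53 for Mmp13, -0.02 ± 0.36 for Timp1 and -0.17 ± 0.28 for Timp2, and in non-responder strains they were 0.02 ± 0.098, 0.11 ± 0.47, -0.64 ± 0.58, -0.23 ± 0.36 and -0.06 ± 0.29. Only for Mmp14 do these errors bound the effect closely, and for Mmp9 (-1.33 ± 0.83 in responder strains) they leave a wide range. Over the 24 pairs of an aPD1 and an isotype tumor of the same strain and pool, the level with aPD1 was the higher in 14 for Mmp14, 10 for Mmp12, 11 for Mmp13, 13 for Timp1 and 13 for Timp2. For Mmp13 and Timp1 the direction was not measured in CC007 of pool 6. Its aPD1 tumor had no UMI of either gene, which allows up to 64.4 CPM, above the level of its partner.

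Mmp2, which the filter on low counts left out of the class and aPD1 fits, was listed higher with aPD1 in 9 of 10 responder pairs (median difference 0.60 in log2(CPM + 1)), in 4 of 9 non-responder pairs and in 1 of 5 unclassed pairs. Its levels in those pairs lay between 0 and 2.67 CPM, with 253 UMIs over all macrophages. In 4 of these 24 pairs the direction was not measured, since the tumor with no Mmp2 UMI could have held more than the level of its partner. In CC002 of pool 12, a responder pair, the isotype tumor had 0 UMIs, which allows up to 7.27 CPM of Mmp2. The others were CC080 of pool 4, B6 of pool 6 and CC007 of pool 6. Mmp19 was higher in 15 of the 24 pairs and Mmp8 in 12.

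Other genes of the pathway were read from lists beside the members. Of 19 other MMPs and inhibitors only 1 was measurable in macrophages, Mmp25, a membrane-anchored MMP, which was higher in responder strains (1.04 ± 0.27, edgeR adjusted p = 0.0152). Mmp3 and Timp3 were highest in fibroblasts (95.4 and 342 CPM). These counts stand beside 6.56% of all genes called over both treatments. Of 7 measured genes of the plasminogen system, which activates several MMPs, 1 was lower, Anxa2, a cell-surface receptor for plasminogen (-0.46 ± 0.10, adjusted p = 0.00376), and the median over the list was -0.28. Of 6 ADAM and ADAMTS proteases 1 was higher, Adam19 (0.64 ± 0.16, adjusted p = 0.0113). Of 9 partners, receptors and cathepsins, the cysteine protease gene Ctss was higher (0.28 ± 0.071, adjusted p = 0.0113) and the collagen-binding receptor gene Mrc1 lower (-0.58 ± 0.17, adjusted p = 0.0336). Of 6 matrix substrates 2 were lower in responder strains, fibronectin, Fn1 (-0.94 ± 0.15, adjusted p = 6.01e-05) and versican, Vcan (-0.95 ± 0.29, adjusted p = 0.0363), and the list had a median of -0.32. In aPD1 tumors alone, where 6.44% of all genes were called, Mmp25 (1.66), Adam19 (0.90) and Ctss (0.41) were higher and Adam15 (-0.26) and Fn1 (-1.17) lower (adjusted p from 0.00074 to 0.03), while in isotype tumors and for the effect of aPD1 no gene of these lists passed.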

How the data were processed

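Tumor cells of 48 MC38 tumors were profiled by 10x Genomics 5′ single-cell RNA sequencing. The authors aligned reads to GRCm38 (GENCODE vM23) with Cell Ranger, removed cells of high mitochondrial or ribosomal share and clustered with Seurat 5.0.1; they deposited raw UMI counts per gene and cell, with library, strain, treatment, animal, hashtag and cluster of each cell. Reads of F1 hosts were thus aligned to a C57BL/6J genome. The deposited hashtag sequences were not used. How doublets were treated is not given in the sources used here, and no caller was run.

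Clusters were named where 3 markers and 50% of a list reached 100 CPM. The name was withheld where another list had more markers among the 10 leading genes. It was also withheld where cells were of low depth and no marker of the list led. Cluster 25 passed with 6 of 6 markers and stayed unnamed for such a reason. Counts were summed per tumor over macrophages (20 or more cells) and tested with edgeR 4.0.16 (glmQLFit, TMM, filterByExpr, R 4.3.3), Benjamini-Hochberg adjusted over all genes tested, at 0.05; SEs come from the fit's information matrix. DESeq2 1.42.0 was an alternative. A single cluster was fitted with 4 or more tumors in each group. Named genes were all 9 members, pathway genes that passed (up to 4 per list) and the 3 genes of most similar cluster pattern. Members and lists were chosen with earlier results of these data known. On simulated counts for the class difference (11774 genes) 97% of 2-fold changes were recovered, and for strains (11852 genes), with the change placed in CC001, 86%. Of the unchanged genes, 21 and 3 were called. Beyond the changed genes, the simulated tumors held no difference between strains or pools, unlike the data. Recovery in the data may thus be lower. The 2 tumors of a strain in a pool deviated together from the means of their class and treatment: 18 of 19 pairs correlated above 0.1 (median r 0.442). Shared strain and shared pool cannot be told apart in this. An animal identifier stands on 2 tumors, CC080 isotype of pool 3 and CC080 aPD1 of pool 4, which were kept apart. Nothing says that tumors of a strain came from separate experiments, so p-values measure the spread between these tumors.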

Additional observations from a re-analysis of the deposited data

Results flagged for a closer look

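Each member's macrophage level was examined for a single tumor that stood far from the rest of its group, in 108 groups of tumors, of which 20 were marked. For normally distributed values the rule marks about 1 in 20 groups. These levels are skewed, and a classed tumor stands in both a strain group and a class group. The 20 marks can therefore not be set against that rate. Mmp9 was marked in the CC002 isotype tumor of pool 3 (52.6 CPM), the CC036 aPD1 tumor of pool 8 (30.2 CPM, among CC036 and among non-responder aPD1 tumors), the CC075 aPD1 tumor of pool 11 (28.1 CPM), the CC079 isotype tumor of pool 2 (25.4 CPM) and the B6 isotype tumor of pool 8 (8.05 CPM). In each of these tumors over 50% of the Mmp9 UMIs came from cluster 15.

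CC036 tumors were marked for both neighbors on chromosome 9. The CC036 isotype tumor of pool 8, with 323 macrophages, had 75.1 CPM of Mmp13 (among CC036 and among non-responder isotype tumors) and 488 CPM of Mmp12, and the CC036 aPD1 tumor of pool 10 had 733 CPM of Mmp12. Mmp13 was also high in the B6 isotype tumor of pool 8 (41.9 CPM) and the CC080 isotype tumor of pool 4 (27.2 CPM), and low in the CC001 aPD1 tumor of pool 12 (16.4 CPM), which held the highest Timp1 level of its strain (49.7 CPM).

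The CC007 aPD1 tumor of pool 6, with 30 macrophages, was marked for Mmp8 (64.4 CPM) and Mmp14 (64.4 CPM), each resting on 3 UMIs. The remaining marks were Mmp2 in the CC075 aPD1 tumor of pool 9 (2.67 CPM, 10 UMIs, among CC075 and among responder aPD1 tumors), Mmp8 in the CC075 isotype tumor of pool 9 (0.451 CPM, 2 UMIs) and Mmp14 in the CC002 aPD1 tumor of pool 12 (205.6 CPM). A difference between the classes in the effect of aPD1 was called for no member (edgeR interaction, 0 of 8), in a fit that did not pair tumors.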

How the results depend on the processing

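The count of members called between classes over both treatments (2, Mmp14 and Timp1) was 1 with library size scaling (Mmp14 lost), 1 without tumors of under 500 cells (Timp1 lost), 1 without cluster 5 (Mmp14 lost), 0 with no filter on low counts, 0 in pools 1 to 5 alone, 0 in pools 8 to 12 alone, and 0 to 3 leaving out a strain or pool. In aPD1 tumors alone it was 1 (Mmp14) with the pool as a replicate block and 0 to 1 leaving out a strain or pool, and in isotype tumors 0 to 1. Of the strain contrasts, 9 calls became 0 with the pool block, and the Mmp12 difference of CC036 turned from 0.91 to -0.044; the block compares strains through few shared pools, and the cause was not tested. Those against the strains of the same pools (7 calls) gave 3 to 9 leaving out a pool, with 3 without pool 9. In single clusters, the class difference (4 calls) gave 2 at 50 cells per tumor and 7 with no filter, and aPD1 in responder strains (0) gave 2 with no filter (Mmp12 in clusters 6 and 11, beside 0.123% and 0.0978% of genes called). The pool block moved the count of genes that differed between strains from 6464 to 1623 (13%) and that of members from 6 to 4. All other counts of members stayed within 1.5 times. Depth limits Mmp2, Mmp8 and Mmp9, and tumors of few macrophages. The alternatives without a cluster and the comparisons of single strains were chosen after seeing the data.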
